A study of Mus musculus with 12 samples.

Results

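Genes of DNA replication and S phase were followed here as a set of 42 mouse genes, picked by name for their work at replication origins, at the fork or in nucleotide supply, among 24184 genes tested. The set was chosen with earlier results of these data known, so its contrast with all genes is a description. Each gene was read from 1 probe, the brightest of those whose RefSeq accession maps to its symbol, and each of the 42 probes was well above background on all 12 arrays. The arrays were one-colour Agilent mouse expression arrays carrying RNA of DKO172 cells, a mouse line that came from a tumor of the fallopian tube of a female. The line is known as a Dicer1 knockout, although the labels used here do not give that genotype. All cells were transfected with 2 µg of a hygromycin-selectable plasmid (pLD-hygro-EnVM), re-plated after 24 h and held in 300 µg/ml hygromycin for 84 h, which is 108 h in all. The plasmid coded for wild-type DICER1 (the WT group), for 1 of the hotspot mutants D1709N and G1809R, or for the control protein GFP, and each group had 3 arrays. Hygromycin, transfection and the host line were therefore shared by all 4 groups, the GFP controls included. The labels do not say whether the 3 replicates of a group were separate cultures, so p-values measure only the spread among these arrays, and that spread may be technical.

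DICER1, an enzyme of the RNase III class, cuts microRNA precursors into mature microRNAs. The D1709N and G1809R substitutions are recurrent in human tumors and lie in the RNase IIIb domain, on which the release of 5p microRNAs depends. Replication begins when the origin recognition complex, CDC6 and CDT1 load the MCM helicase onto DNA in G1. The CDC7-DBF4 kinase, CDC45, the GINS complex and MCM10 turn the loaded helicase into a moving one, and primase, polymerases, the PCNA clamp, its RFC loader and the Okazaki fragment enzymes then copy both strands. Transcription of many of these genes peaks at the entry into S phase under E2F factors, so that their levels are widely read as a sign of proliferation. In RNA from whole cultures, fewer cells in S phase and less RNA per cell cannot be told apart.

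Levels are log2 processed intensities less the 75th percentile of the array, errors of levels are SDs over 3 arrays, and errors of changes are standard errors from limma. A gene was called where limma's p, adjusted over all 24184 genes by Benjamini and Hochberg, was under 0.05. Same-numbered replicates of the 4 groups deviated together, so values with the replicate number as a block are given beside the counts and beside most named members. Between 49.5% and 82.7% of the probes on an array were well above background, lowest on D1709N replicate 3 and highest on WT replicate 1. Slide 1 carried the first replicate of each group, and slide 2 carried replicates 2 and 3. The epithelial keratin gene Krt8 and, of the oviduct markers, Wt1 and Ovgp1 were well above background, while Pax8 and Foxj1, and the leukocyte and endothelial genes Ptprc and Cdh5, did not reach the level needed for testing. Other leukocyte genes (Cd14, Csf1r, Itgam and Cd3e) and endothelial genes (Pecam1, Kdr and Vwf) did reach it. So did the oviduct markers Emx2 and Esr1. On the GFP arrays the mean of the 4 measured leukocyte markers lay between 1.492 and 1.77. That of the 8 measured epithelial markers lay between -0.523 and 0.125 there, and that of the 3 endothelial ones between -1.467 and -0.624. The 1 probe of the mouse Dicer1 gene read 1.13 ± 0.20 with GFP and 0.27 ± 0.23 with WT, and it checks no label, since its place relative to the deleted part of the gene is not given.

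Because the set is known for control by E2F factors at the promoter, the start regions of 6 members are printed first, to show what such matches look like in members with large and small changes. Each is a RefSeq window of the GRCm38.p6 build from 250 bases before to 50 bases after the gene's start, written 5′ to 3′ on the gene's strand. Capitals mark matches to the E2F motifs searched (TTTCGCGC, TTTGGCGC and TTTCCCGC, on both strands).
Mcm6 promoter: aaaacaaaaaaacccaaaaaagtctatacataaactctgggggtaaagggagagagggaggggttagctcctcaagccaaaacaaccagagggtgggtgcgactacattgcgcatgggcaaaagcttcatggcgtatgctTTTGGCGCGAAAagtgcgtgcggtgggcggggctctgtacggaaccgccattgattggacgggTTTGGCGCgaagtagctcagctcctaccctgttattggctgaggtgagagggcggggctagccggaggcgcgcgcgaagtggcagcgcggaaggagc
Mcm5 promoter: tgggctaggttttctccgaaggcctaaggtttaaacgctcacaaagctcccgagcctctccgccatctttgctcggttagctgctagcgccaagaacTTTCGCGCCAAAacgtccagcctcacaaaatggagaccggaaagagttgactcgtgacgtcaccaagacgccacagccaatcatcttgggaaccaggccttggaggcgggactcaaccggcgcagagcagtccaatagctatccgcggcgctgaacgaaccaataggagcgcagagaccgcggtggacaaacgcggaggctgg
Cdt1 promoter: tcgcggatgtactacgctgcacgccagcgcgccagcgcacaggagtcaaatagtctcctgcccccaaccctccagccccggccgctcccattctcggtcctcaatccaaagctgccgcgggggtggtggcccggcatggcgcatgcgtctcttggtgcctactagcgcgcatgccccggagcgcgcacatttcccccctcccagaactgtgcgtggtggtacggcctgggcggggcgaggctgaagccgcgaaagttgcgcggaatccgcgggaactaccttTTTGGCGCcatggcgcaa
Pola1 promoter: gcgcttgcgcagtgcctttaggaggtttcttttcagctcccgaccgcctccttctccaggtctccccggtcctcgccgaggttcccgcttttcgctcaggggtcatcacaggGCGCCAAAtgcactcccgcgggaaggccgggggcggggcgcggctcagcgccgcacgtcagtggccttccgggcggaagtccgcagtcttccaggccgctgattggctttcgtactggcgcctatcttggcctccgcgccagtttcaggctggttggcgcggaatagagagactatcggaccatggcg
Rrm2 promoter: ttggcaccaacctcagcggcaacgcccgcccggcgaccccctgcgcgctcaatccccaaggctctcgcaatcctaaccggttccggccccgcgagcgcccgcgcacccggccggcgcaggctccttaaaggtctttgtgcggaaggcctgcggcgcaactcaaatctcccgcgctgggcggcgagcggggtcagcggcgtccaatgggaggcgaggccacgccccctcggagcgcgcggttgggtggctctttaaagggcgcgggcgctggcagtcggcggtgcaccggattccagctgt
Rfc4 promoter: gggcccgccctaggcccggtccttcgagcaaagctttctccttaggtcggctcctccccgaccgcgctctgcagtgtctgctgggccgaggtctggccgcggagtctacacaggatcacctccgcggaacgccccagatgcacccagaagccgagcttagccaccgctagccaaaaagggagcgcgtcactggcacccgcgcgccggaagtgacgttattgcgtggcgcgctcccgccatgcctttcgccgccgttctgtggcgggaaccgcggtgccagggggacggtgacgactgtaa
The Mcm6 window (chr1:128359656-128359955, - strand) held 3 matches, more than any other member, of which 2 overlap on opposite strands at -110 and -106 from the start and 1 stands at -47. The Mcm5 window (chr8:75109259-75109558, + strand) held 2 overlapping matches at -153 and -149. Cdt1 (chr8:122567765-122568064, + strand) had 1 match at position 33 past the start, and Pola1 (chrX:93632106-93632405, - strand) had 1 at -138. Neither Rrm2 (chr12:24708004-24708303, + strand) nor Rfc4 (chr16:23127681-23127980, - strand) held these letters.

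Windows were found for 34 of the 42 members and not for Mcm4, Gmnn, Gins1, Gins2, Gins4, Rfc2, Prim2 and Pole. Of the 34, 12 held an E2F match (35.3%), against 573 of all 27025 genes with a window (2.12%) and 427 of 11708 tested genes (3.65%). The CCAAT box bound by NF-Y was in 21 of 34 members (61.8%) and in 42.8% of the tested genes. The CHR element TTTGAA, known from mitotic genes, was in 6 of 34 members (17.6%) and in 14.7% of the tested genes. Member windows had a median GC content of 60.65%, close to the 59.7% of the tested genes' windows and above the 52.7% of all windows. A match is a description of letters and was not tested as a binding site.

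**Figure D1:**
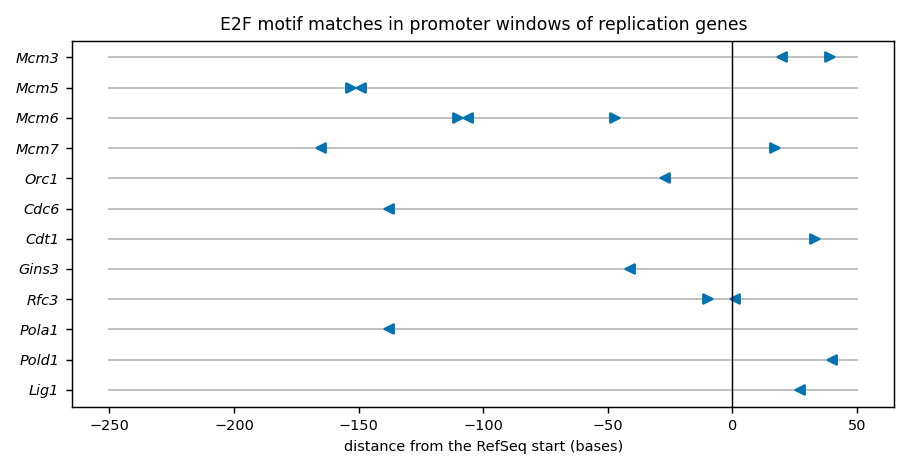
Position of each E2F motif match (triangles, pointing right for the gene's strand and left for the opposite strand) in the 300-base promoter windows of the 12 members that hold one, as distance in bases from the RefSeq start. Mcm6 has 3 matches, Mcm3, Mcm5, Mcm7 and Rfc3 have 2 each and the other 7 members have 1.

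With WT against GFP, the replication genes lay lower across most of the set, by a small amount each. Of the 42 members, 38 had a change below 0, the median was -0.37 on the log2 scale against 0.04 for all genes tested, and the changes ran from -0.85 (Pola1) to 0.14 (Tyms). Only Gins1 and Rfc4 passed the test, both lower, and 40 members were not called. That is 4.76% of the members, against 1.76% of all genes called lower and 1.19% called higher. With the replicate block 26 members were lower and none higher, against 8.6% of all genes lower and 9.18% higher. Members whose 3 WT arrays all lay below the 3 GFP arrays numbered 24, where 10.2% of all genes did so. Both calls were lost with only the groups compared, with slide 2 alone, with median scaling and with no filter on dim probes. By pairs of the same replicate number, 35 members were lower in 3 of 3, 1 was higher in 3 of 3 and 6 were mixed. The share of all genes with 3 of 3 pairs in the same direction was not counted, so how unusual 35 is cannot be read from this. On slide 1 alone the median of the members was -0.39 and on slide 2 alone it was -0.37.

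**Figure D2:**
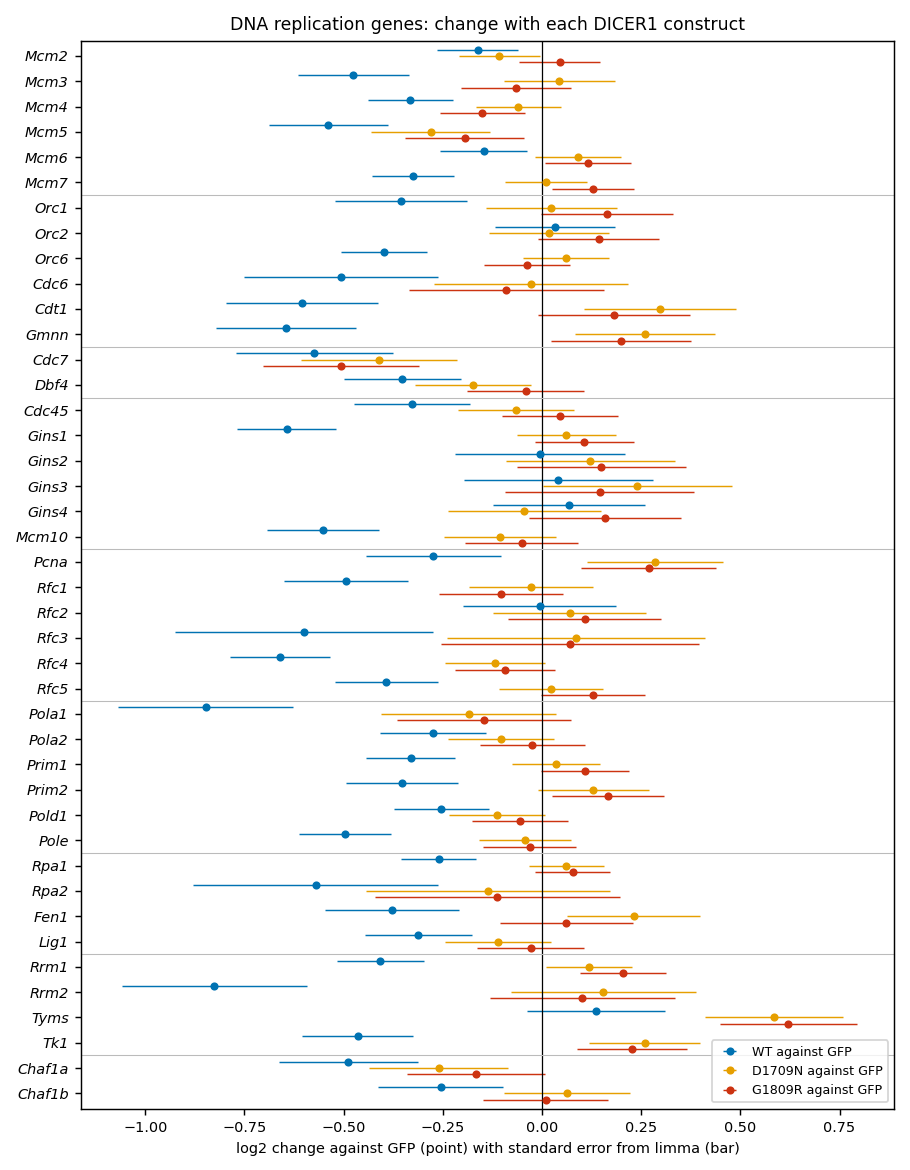
Log2 change of each of the 42 members against GFP with WT (blue), D1709N (orange) and G1809R (red), with bars for the standard error from limma; grey lines separate role groups. The WT points lie left of 0 for 38 members, while the mutants' points scatter around 0 with medians of 0.02 and 0.07.

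Against GFP, neither mutant had a called member. With D1709N against GFP none passed with or without the block, where the test called 0.0413% of all genes lower and 0.00827% higher and the block 2.49% lower and 1.76% higher. The members' median was 0.02, and their changes ran from -0.41 to 0.59. With G1809R against GFP no member was called either way, where the test called 0.0124% of all genes lower and 0% higher and the block 1.98% lower and 1.75% higher. The median was 0.07 and the range was -0.51 to 0.62. At an unadjusted p under 0.05, 26 members differed with WT, where 15.4% of all genes did. With D1709N 1 member did so (7.21% of all genes) and with G1809R 2 (6.64% of all genes). These comparisons share the GFP arrays, so the direct comparisons of the mutants with WT, further on, are the test of the difference.

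**Figure D3:**
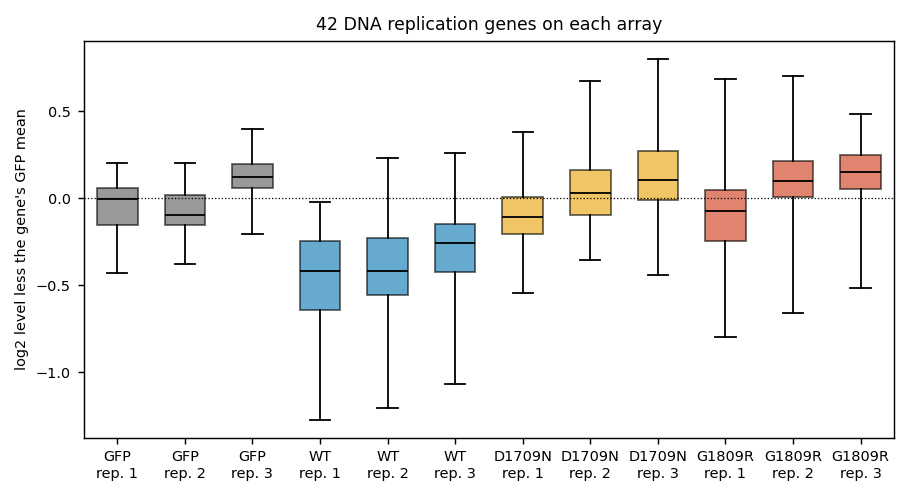
Levels of the 42 members on each of the 12 arrays, as log2 level less the gene's GFP mean; boxes span the middle 50% of the genes with the median as a line, and whiskers reach the lowest and highest gene. The WT medians lie between -0.42 and -0.26, and those of the 9 other arrays between -0.11 and 0.15.

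The 6 MCM subunits form the ring that unwinds DNA ahead of the fork. None was called with WT against GFP, and 4 were lower with the replicate block (Mcm3, Mcm4, Mcm5 and Mcm7). The median of the 6 was -0.33. Mcm7 read 4.92, 4.82 and 5.0 in GFP replicates 1 to 3, 4.54, 4.62 and 4.60 with WT, 4.90, 4.89 and 4.97 with D1709N, and 4.98, 4.95 and 5.20 with G1809R. All 3 WT arrays were below the 9 others, and the change against GFP was -0.32 ± 0.10 (adjusted p = 0.14, or 0.0221 with the block). Mcm5 had a larger change of -0.54 ± 0.15 (adjusted p = 0.0946, block 0.00786) from 4.39 ± 0.16 with GFP to 3.85 ± 0.12 with WT.

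Mcm6 and Mcm2 moved least within the ring. Mcm6, with the most E2F matches among the promoters printed above, read 6.34, 6.02 and 6.25 with GFP, 6.09, 6.02 and 6.05 with WT, 6.19, 6.37 and 6.31 with D1709N, and 6.33, 6.37 and 6.25 with G1809R. The WT and GFP arrays overlapped, and the change of -0.15 ± 0.11 did not pass (adjusted p = 0.65, block 0.348). Mcm2 gave -0.16 ± 0.10 (adjusted p = 0.552, block 0.173).

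Origin recognition and licensing had no called member of 6 with WT against GFP and 5 that were lower with the block, which left out only Orc2, a core subunit of the recognition complex at 0.03 ± 0.15. Gmnn encodes geminin, which binds CDT1 and blocks relicensing. It read 1.99, 1.58 and 2.14 with GFP, 1.25, 1.04 and 1.48 with WT, 2.02, 2.10 and 2.37 with D1709N, and 2.21, 2.12 and 1.99 with G1809R. The WT arrays lay below all others, with a change of -0.65 ± 0.18 against GFP (adjusted p = 0.0889, block 0.0148).

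Cdt1, the loading factor that geminin restrains, read 5.61, 5.44 and 5.71 with GFP, 4.85, 4.82 and 5.28 with WT, 5.57, 6.15 and 5.94 with D1709N, and 5.53, 5.97 and 5.81 with G1809R. Its change was -0.61 ± 0.19 (adjusted p = 0.137, block 0.03), and WT replicate 3 came nearest to the other groups. Orc6, a small subunit of the recognition complex, read 4.93, 4.76 and 4.90 with GFP against 4.56, 4.41 and 4.42 with WT. With the mutants it stood at 4.93, 4.95 and 4.88 (D1709N) and at 4.79, 4.98 and 4.69 (G1809R), and the groups WT and GFP did not overlap (-0.40 ± 0.11, adjusted p = 0.0875, block 0.0214). So the loader and its inhibitor both had lower values on the same arrays. Cdc6, which loads the helicase together with Cdt1, had -0.51 ± 0.24, with arrays that overlapped between the groups (adjusted p = 0.377, block 0.0092).

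The kinase that fires origins had no member called with WT against GFP, with or without the block. Cdc7, its catalytic subunit, had values below GFP with every construct, by -0.57 ± 0.20 with WT, -0.41 ± 0.20 with D1709N and -0.51 ± 0.20 with G1809R, and none of these changes passed. The chosen probe was dim, at a mean level of -3.05. A further probe of Cdc7, also dim at -3.30, gave -0.45 with WT, -0.50 with D1709N and -0.11 with G1809R. Array values of the chosen probe were -2.69, -2.74 and -2.61 with GFP and -2.96, -3.34 and -3.46 with WT. They were -3.22, -3.03 and -3.02 with D1709N, and -3.48, -3.34 and -2.74 with G1809R. On the chosen probe all 9 arrays with DICER1 lay below the 3 with GFP, G1809R replicate 3 by less than the printed precision. Dbf4, its activating subunit, read 0.57, 0.98 and 0.94 with GFP, 0.33, 0.66 and 0.44 with WT, 0.65, 0.82 and 0.49 with D1709N, and 0.75, 0.76 and 0.85 with G1809R. The WT and GFP arrays of Dbf4 overlapped (-0.35 ± 0.15, adjusted p = 0.278, block 0.067).

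Helicase activation held one of the called genes beside members that hardly moved. Gins1, one subunit of the GINS complex that joins MCM and CDC45 in the active helicase, fell 1.56-fold with WT. It read 2.11, 1.80 and 1.95 with GFP, 1.34, 1.22 and 1.37 with WT, 1.85, 2.15 and 2.05 with D1709N, and 1.98, 2.19 and 2.00 with G1809R. The WT arrays lay well below the 9 others, and the change was -0.64 ± 0.12 (adjusted p = 0.029, block 0.008). The call held in 6 of 12 fits that each left out 1 array, with an adjusted p of up to 0.109, and was lost without any 1 of the WT arrays, without GFP replicate 1 or 3 or without D1709N replicate 3.

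The other GINS subunits had changes near 0 with WT: Gins2 at 0.00 ± 0.21, Gins3 at 0.04 ± 0.24 and Gins4 at 0.07 ± 0.19. Gins3 read 4.62, 5.15 and 5.07 with GFP, 4.78, 5.09 and 5.09 with WT, 4.82, 5.47 and 5.26 with D1709N, and 4.67, 5.43 and 5.17 with G1809R, with replicate 1, on slide 1, lowest in each group. The 4 subunits thus gave unlike values, and their differences from each other were not tested. Mcm10, a scaffold of the active helicase, had -0.55 ± 0.14 (adjusted p = 0.0727, block 0.00311), and Cdc45 had -0.33 ± 0.15 (adjusted p = 0.324, block 0.065).

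Among the clamp and its loader, 1 of 6 members was called and 4 were lower with the block, the large loader subunit Rfc1 and the small subunits Rfc3, Rfc4 and Rfc5. Rfc4 fell 1.58-fold with WT. It read 4.90, 4.70 and 4.81 with GFP, 4.16, 4.18 and 4.10 with WT, 4.64, 4.85 and 4.58 with D1709N, and 4.63, 4.93 and 4.58 with G1809R. The WT arrays agreed within 0.04 (SD) and lay apart from the rest, with a change of -0.66 ± 0.13 (adjusted p = 0.0274, block 0.00435). Leaving out any 1 of the WT or GFP arrays ended the call, with an adjusted p of up to 0.108.

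Pcna, the sliding clamp itself and a common marker of proliferation, was not called. It read 5.38, 5.35 and 5.45 with GFP, 4.93, 5.03 and 5.39 with WT, 5.45, 5.75 and 5.84 with D1709N, and 5.45, 5.94 and 5.59 with G1809R. WT replicate 3 overlapped GFP, and the change was -0.27 ± 0.17 (adjusted p = 0.544, block 0.196). Rfc3 shows what pairing by replicate does to a value: its arrays read 0.98, 1.55 and 1.66 with GFP and 0.12, 1.02 and 1.24 with WT, so that the groups overlapped while each pair was lower (-0.60 ± 0.32, adjusted p = 0.452, block 0.00884).

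The polymerases and primase gave no called member of 6 with WT against GFP and 4 with the block. Pola1, the catalytic subunit of the polymerase that extends RNA primers, had the change of largest size in the set at -0.85 ± 0.22 (adjusted p = 0.076, block 0.00311). It read 3.17, 2.97 and 2.76 with GFP, 1.97, 2.49 and 1.90 with WT, 2.83, 2.99 and 2.53 with D1709N, and 2.94, 3.07 and 2.45 with G1809R, and G1809R replicate 3 overlapped the WT arrays. Pole, the catalytic subunit of the leading-strand polymerase, read 4.20, 4.07 and 4.32 with GFP and 3.70, 3.71 and 3.69 with WT. With D1709N it stood at 3.99, 4.29 and 4.18 and with G1809R at 4.04, 4.25 and 4.21, so the WT arrays were the lowest 3 of 12 (-0.50 ± 0.12, adjusted p = 0.0544, block 0.0101).

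Prim1, the catalytic primase subunit, had less distance between the groups. It read 4.97, 4.67 and 4.79 with GFP, 4.57, 4.43 and 4.44 with WT, 4.77, 4.91 and 4.87 with D1709N, and 4.82, 5.02 and 4.92 with G1809R. The change of -0.33 ± 0.11 did not pass with or without the block (adjusted p = 0.162, block 0.0583). Prim2, Pold1 and Pola2 had -0.35, -0.25 and -0.27, and the remaining calls with the block were among them.

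Of the 4 members that coat single-stranded DNA or finish Okazaki fragments, none was called and 3 were lower with the block. Rpa1, the large subunit of the coating protein, read 5.52, 5.52 and 5.48 with GFP, 5.26, 5.22 and 5.26 with WT, 5.49, 5.66 and 5.56 with D1709N, and 5.48, 5.68 and 5.59 with G1809R. The WT arrays were the lowest of all 12 although the change was small (-0.26 ± 0.09, adjusted p = 0.204, block 0.0457). The flap endonuclease gene Fen1 had -0.38 ± 0.17 (block 0.107) and the ligase gene Lig1 had -0.31 ± 0.13 (block 0.034). Rpa2, the other member lower with the block, had -0.57.

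Nucleotide supply had no called member of 4 with WT against GFP and 3 that were lower with the block, and of the 9 role groups it had the highest median, 0.64, for the mean of the mutants against WT. Rrm2, the small subunit of ribonucleotide reductase whose level rises in S phase, read 5.24, 4.70 and 5.29 with GFP, 4.23, 3.87 and 4.65 with WT, 5.22, 5.05 and 5.42 with D1709N, and 5.27, 4.90 and 5.37 with G1809R. Replicate 2 was lowest in every group, and the WT arrays lay below the 9 others, with a change of -0.83 ± 0.23 (adjusted p = 0.0988, block 0.00158). Rrm1, the large subunit, read 4.95, 4.97 and 4.95 with GFP, 4.56, 4.61 and 4.47 with WT, 4.99, 5.20 and 5.03 with D1709N, and 5.05, 5.33 and 5.09 with G1809R (-0.41 ± 0.11 for WT against GFP, adjusted p = 0.0833, block 0.0086).

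Thymidine kinase 1 salvages thymidine for DNA synthesis. Tk1 read 3.69, 3.44 and 3.78 with GFP, 3.06, 3.07 and 3.39 with WT, 4.02, 3.76 and 3.92 with D1709N, and 3.96, 3.74 and 3.89 with G1809R. Its WT arrays were again the lowest 3 of 12 (-0.46 ± 0.14, adjusted p = 0.119, block 0.012). Tyms, the thymidylate synthase gene, had a change above 0 with WT: it read -1.55, -1.91 and -1.47 with GFP, -1.72, -1.41 and -1.39 with WT, -1.36, -0.97 and -0.84 with D1709N, and -0.96, -0.94 and -1.16 with G1809R. Both mutants lay above all GFP arrays, by 0.59 (adjusted p = 0.427) and 0.62 (adjusted p = 0.466), neither of which passed.

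Chromatin assembly factor 1 places histones behind the fork. Chaf1b, its middle subunit, read 4.53, 4.27 and 4.63 with GFP, 4.22, 4.04 and 4.40 with WT, 4.44, 4.42 and 4.76 with D1709N, and 4.38, 4.38 and 4.70 with G1809R, with WT and GFP overlapping (-0.26 ± 0.16, adjusted p = 0.539, block 0.054). Chaf1a, the large subunit, had -0.49 ± 0.17 (adjusted p = 0.194, block 0.0112), and its 3 WT arrays were below the other 9.

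Against WT, the same direction was found with both mutants, higher, for 4 called members each. Gmnn, Gins1, Rrm1 and Tk1 rose with D1709N, 4 of 42 members and 9.52% of them, against 0.992% of all genes called higher and 0.67% called lower. The median over the members was 0.40, against -0.01 over all genes, and 25 members were higher and none lower with the block (7.12% and 8.42% of all genes). Tested separately, G1809R against WT called 4 members higher as well, Gmnn, Gins1, Rrm1 and Tk1, against 1.04% of all genes called higher and 0.604% called lower. The median was 0.41, and 23 members were higher and none lower with the block (6.36% and 6.31% of all genes). Both comparisons share the WT arrays, and both counts fell to 0 with only the groups compared, with slide 2 alone, with median scaling and with no filter on dim probes.

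The mean of the mutants against WT, which uses 6 arrays against 3, called 10 members higher and none lower, against 2.18% of all genes higher and 1.42% lower. With the block 29 members were higher and none lower (9.53% and 9.96% of all genes). Gins1 was higher by 0.73 ± 0.11 (adjusted p = 0.0076), Rrm1 by 0.57 ± 0.09 (adjusted p = 0.0121), Tk1 by 0.71 ± 0.12 (adjusted p = 0.0134) and Gmnn by 0.88 ± 0.15 (adjusted p = 0.0147). Gins1 was called in 12 of 12 fits that left out 1 array, Rrm1 in 11, and Gmnn and Tk1 in 10. Rrm2 rose by 0.95 ± 0.20 (adjusted p = 0.0327), Cdt1 by 0.85 ± 0.17 (adjusted p = 0.0244) and Rfc4 by 0.55 ± 0.11 (adjusted p = 0.0251). Pole (0.46), Orc6 (0.41) and Mcm7 (0.39) passed more narrowly, with calls in 3, 1 and 0 of the 12 fits. Of the 9 role groups, 6 had a called member; the firing kinase, the Okazaki fragment group and chromatin assembly had none. The count of 10 fell to 1 without WT replicate 1 and to 2 without WT replicate 2, and lay between 4 and 8 without any other array. With median scaling or with slide 2 alone, none of the 42 was called in this comparison, Gins1, Rrm1, Gmnn and Tk1 included.

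**Figure D4:**
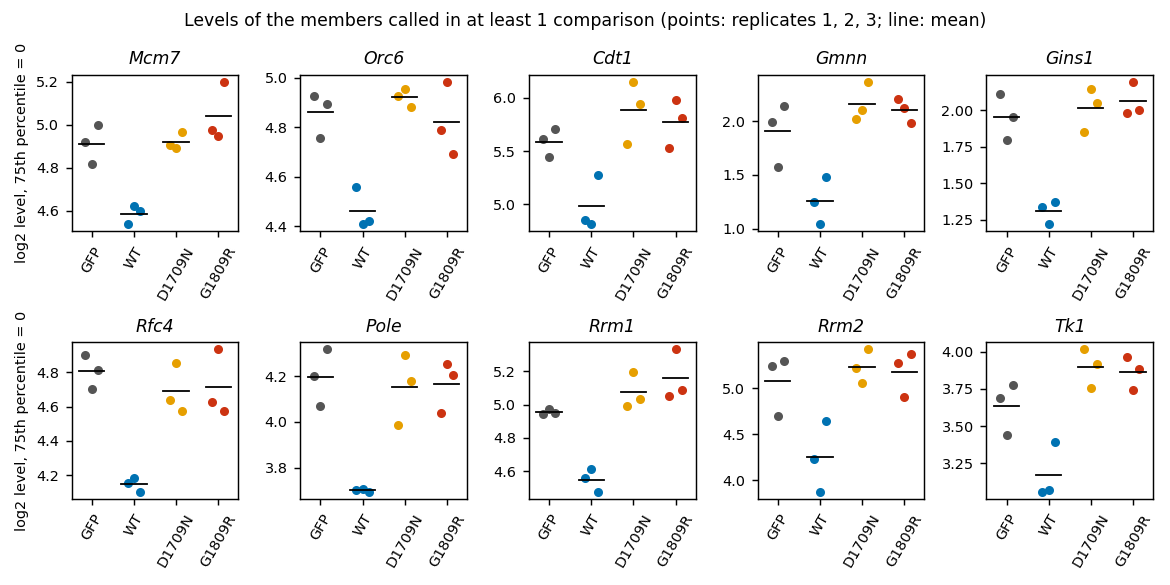
Levels (log2, 75th percentile of the array at 0) of the 10 members called in at least 1 comparison; points are replicates 1, 2 and 3 from left to right and lines are group means. In every panel the 3 WT points lie below the 9 others, and the vertical axes differ between panels and do not start at 0.

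The WT arrays stood apart from the rest for many members. For 20 of the 42 (47.6%), all 3 WT arrays read below all 9 others, where 4.42% of all genes did so, and for none did they read above all 9, where 2.8% of all genes did. Each role group except the firing kinase had such a member, among them Mcm3, Mcm4, Mcm5, Cdc45, Mcm10, Rfc5, Pola2, Prim1, Rpa1 and Chaf1a beside the 10 called genes. The mean level of the 42 members lay between 2.62 and 2.80 on the WT arrays, between 2.99 and 3.20 with GFP, between 2.98 and 3.19 with D1709N and between 2.98 and 3.21 with G1809R.

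Between the mutants the replication genes did not differ by the test. No member was called for G1809R against D1709N with or without the block, nor was any of all genes (0%), and 0 members had an unadjusted p under 0.05, where 65 genes did (0.269%). The changes ran from -0.17 to 0.20 with a median of 0.03, and the standard errors of members ran from 0.09 to 0.32. With 3 arrays a group, differences of this size were not detectable, and a p over the threshold does not show equal levels.

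Members with an exact E2F match in the window had median changes close to those of members without one. Only the exact strings searched were counted, so members without a match may still hold near matches to them. With WT against GFP the 12 members with a match had a median of -0.42 and the 22 without had -0.38. For the mean of the mutants against WT the medians were 0.42 with and 0.42 without. Among members with a match, Mcm6 was at -0.15 with WT, and Pola1, Cdt1 and Mcm5 were at -0.85, -0.61 and -0.54. Among members without one, Rfc4 and Rrm2 were at -0.66 and -0.83, and Orc2 and Tyms were at 0.03 and 0.14. The difference between members with and without a match was not tested.

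A list of 50 other replication genes had a median like that of the members. With WT against GFP 6 fell, none rose and 44 were not called, where 1.76% of all genes were called lower and 1.19% higher. The median was -0.37, and 26 were lower with the block (8.6% of all genes). The called ones were Dna2, a nuclease and helicase of Okazaki fragment processing (-0.90), Dtl, which directs the destruction of CDT1 (-0.87), the topoisomerase Top2a (-0.83), the cohesin acetyltransferase Esco2 (-0.66), the maintenance DNA methyltransferase Dnmt1 (-0.65) and the polymerase delta subunit Pold3 (-0.61). For the mean of the mutants against WT 17 of 50 rose and none fell, against 2.18% and 1.42% of all genes. With the block 30 were higher (9.53% of all genes). None was called with either mutant against GFP.

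Genes that control the passage from G1 to S had a median further below 0. Of 26 measured among 29 listed, 9 fell with WT against GFP and none rose, where 1.76% of all genes fell and 1.19% rose. The median was -0.53, and with the block 15 were lower and 1 higher (8.6% and 9.18% of all genes). Members of the E2F family that fell were E2f2 by 1.52, E2f8 by 1.35 and E2f7 by 1.20 on the log2 scale, of which E2F7 and E2F8 are known as repressors. Cdc25a, a phosphatase that activates CDKs, fell by 1.20 and the S phase cyclin gene Ccna2 by 1.15. Mitosis genes had a median of -0.77, and 13 of 22 fell and none rose, against 1.76% and 1.19% of all genes. With the block 21 were lower (8.6% of all genes). The largest changes were those of Kif23 (-1.14), Aurkb (-0.97), Bub1 (-0.97), Ccnb2 (-0.95) and Prc1 (-0.93). The share called in the members, 2 of 42, was thus below that of the mitosis list, and the difference between the lists was not tested. With either mutant against GFP no gene of these lists was called. With the block 1 G1-S gene was lower and 1 higher with D1709N, where 2.49% and 1.76% of all genes were. With G1809R 1 was lower and 2 higher, where 1.98% and 1.75% of all genes were. Counts this small in 26 genes were not read as a change of the list.

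Interferon-stimulated genes moved with the WT group too, in the other direction. Of 22 measured among 24 listed, 4 rose with WT against GFP (Oasl1, Ifih1, Gbp2 and Xaf1), where 1.19% of all genes did. With the block 21 were higher (9.18% of all genes), and the median was 3.32. The list mean lay between 1.18 and 3.44 on the WT arrays and between -1.19 and 0.87 on the GFP arrays. On the D1709N arrays it lay between 0.63 and 2.45 and on the G1809R arrays between 1.11 and 3.05. Against GFP the list's medians were 1.79 with D1709N and 2.25 with G1809R, with no gene called. With the block 7 and 18 genes were higher, against 1.76% and 1.75% of all genes. The part of the interferon genes in the lower replication gene levels was not tested.

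Some markers of other cell types changed in the same contrasts, most of them only with the block. With the block, 8.6% of all genes were lower and 9.18% higher with WT against GFP. For the mean of the mutants against WT, 9.96% were lower and 9.53% higher. The mean level of the 5 smooth muscle markers, all of them measured, lay between -0.54 and 0.63 on the WT arrays, between -1.30 and 0.31 with GFP, between -1.97 and -0.13 with D1709N and between -2.05 and -0.36 with G1809R. These ranges overlap, but the WT array was the higher of the pair with GFP in 3 of 3 replicates. None of the 5 was called without the block. With it, Cnn1 (1.11, block 0.00298) and Des (0.95, block 0.0345) were higher with WT against GFP, and for the mean of the mutants against WT all 5 were lower, Cnn1 at -2.10 (block 0.000113), Tagln at -1.37 (block 0.00266), Myh11 at -1.17 (block 0.00658), Acta2 at -0.91 (block 0.00591) and Des at -0.73 (block 0.0492).

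Of 10 mesenchymal markers, Pdgfra fell with WT against GFP (-0.91, adjusted p = 0.0074) and Pdgfrb was lower with the mean of the mutants than with WT (-0.99, adjusted p = 0.0193). With the block 3 were lower and 2 higher with WT against GFP, and 4 were lower and 4 higher for the mean of the mutants against WT. No epithelial, oviduct, leukocyte or endothelial marker was called without the block. With the block and WT against GFP, Krt19 (0.50), Emx2 (0.42) and Cd14 (0.51) were higher, out of 8 epithelial, 4 oviduct and 4 leukocyte markers measured. For the mean of the mutants against WT, 3 of 8 epithelial markers were higher with the block, Krt7 (0.80), Krt8 (0.67) and Krt18 (0.54), as were Wt1 (0.51) and Csf1r (1.14), while Emx2 (-0.40), Esr1 (-0.44), Kdr (-0.58) and Vwf (-0.72) were lower. The part of these markers in the replication gene values was not tested.

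**Figure D5:**
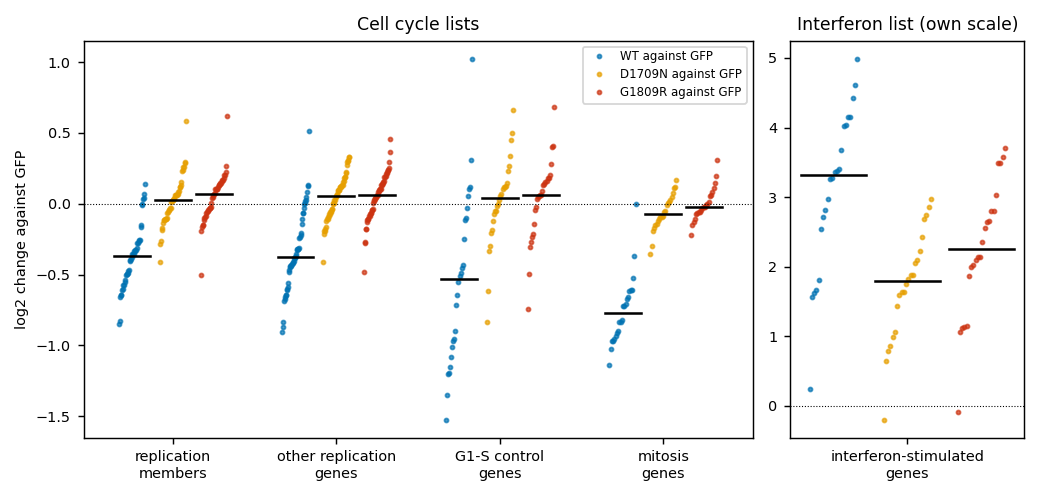
Log2 change against GFP of every measured gene (points) of the 42 members and of 4 other lists, with WT (blue), D1709N (orange) and G1809R (red); black bars are list medians, and the interferon list has its own axis. With WT the medians are -0.37, -0.37, -0.53 and -0.77 for the members, other replication, G1-S and mitosis genes and 3.32 for the interferon genes.

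The size of the shift moved with the scaling. With the array median in place of the 75th percentile the median change of all genes with WT against GFP moved from 0.04 to -0.24 and that of the members from -0.37 to -0.65, which leaves the members -0.41 from all genes in both. The 4 members above 0 in the main scaling (Orc2, Gins3, Gins4 and Tyms) were below 0 with median scaling, which lowers every gene by the same amount in this comparison. With quantile normalization the members' distance from all genes was -0.33, those 4 stayed above 0, and Gins2 and Rfc2 were above 0 too.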

How the data were processed

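Per the labels, each array took Cy3-labelled RNA made from 100 ng of the total RNA of 1 sample. Per the file headers, Agilent Feature Extraction 11.0.1.1 gave each spot a background-subtracted intensity, and no scaling between arrays was applied. The series' deposited log2 value table (31362 probes) served as an alternative. No source used here names its scaling, but all its arrays share a maximum of 18.85 and a 75th percentile of 12.299, as after quantile normalization. It is therefore not a check separate from the quantile setting. Flags of 0 or 1 for other properties of a spot (well above background, outlier) came with the deposited files.

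The log2 intensity less the array's 75th percentile was tested with limma 3.58.1 in R 4.3.3 (files read with the package data.table, version 1.17.8), with 12 arrays in 1 fit, the group as the only factor and two-sided tests, after tests on simulated data. A probe was kept if some group had it well above background on each of its arrays, and the brightest stood for its gene, which left 24184 genes (14732 with a symbol through RefSeq's annotation of GRCm38.p6). Probes flagged throughout on an array (287) and control spots (3671) were left out. The alternatives were a replicate block, a slide block, only the groups compared, slide 2 alone, normexp with an offset of 50 (on the median spot signal, since no mean signal column was present), quantile and median scaling, the value table, looser and stricter filters, the mean of a gene's probes and each array left out.

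Deviations from group means correlated at 0.601 to 0.853 in the 18 same-numbered pairs across groups and at most at 0.197 otherwise, so the replicate numbers pair the samples. The labels do not say what a number marks. No probe was saturated, and 3 arrays per group limit the precision.

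The members and all gene lists were chosen with earlier results of these data known. Values on every array are given for called members, at most 3 per role group, and for the brightest probe of each role group; up to 5 called genes of other lists with the largest change were to be named. Pold3, Mcm5, Cdc7, Pola1, Rfc3, Tyms and the cell type markers named with values were added after their values were seen.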

Additional observations from a re-analysis of the deposited data

How the results depend on the processing

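Members called lower with WT against GFP numbered 2. They were 26 with the replicate block, 13 with the slide as a block and 4 with normexp, and 0 with only the groups compared, with slide 2 alone, with median scaling and with no filter. Their median became -0.648 with median scaling. Members higher with D1709N against WT numbered 4, and 25 with the replicate block, 14 with the slide block and 0 with only the groups compared, slide 2 alone, median scaling or no filter. Their median was 0.330 with quantile normalization, 0.620 with median scaling and 0.328 in the value table. For G1809R against WT the 4 became 23 with the replicate block, 12 with the slide block, 2 with quantile normalization or the value table and 0 with only the groups compared, slide 2 alone, median scaling or no filter, and the median was 0.654 with median scaling. The median of G1809R against D1709N was 0.049 with median scaling. For the mean of the mutants against WT the 10 became 29 with the replicate block, 19 with the slide block, 4 with only the groups compared, 0 with slide 2 alone, 6 with quantile normalization or the value table, 0 with median scaling and 3 with no filter. Its median was 0.324 with quantile normalization, 0.651 with median scaling and 0.323 in the value table. The causes were not tested, except that slide 2 alone and only the groups compared use fewer arrays.

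Leaving out 1 array at a time gave 0 to 2 members lower with WT against GFP (median -0.45 to -0.312), 0 to 3 higher for D1709N against WT (0.32 to 0.444), 0 to 4 for G1809R against WT (0.346 to 0.477) and 1 to 8 for the mean of the mutants (0.344 to 0.441). Medians ran from -0.037 to 0.07 for D1709N against GFP, -0.007 to 0.112 for G1809R against GFP and -0.03 to 0.09 between the mutants, with 0 calls. The 713 genes called with WT against GFP were all called with the block too, as were both members. Of 966 member values under the alternatives for that comparison, 942 kept the sign, and none of the other 24 had a main value over 0.137 in size.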

Other observations

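Of the 42 members, 5 had a further probe kept. With WT against GFP the chosen and the other probe gave -0.51 and -0.18 for Cdc6, -0.57 and -0.45 for Cdc7, -0.26 and -0.26 for Chaf1b, -0.66 and -0.45 for Rfc4, and -0.50 and -0.04 for Pole, whose other probe was dim at a mean level of -3.41. Tyms differed between pairs of arrays with WT against GFP, at -0.17 for replicate 1, 0.50 for replicate 2 and 0.09 for replicate 3. Pola1 gave -1.20 on slide 1 and -0.67 on slide 2, and Rfc3 gave -0.86 and -0.47.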
